A study of Homo sapiens with 18 samples.

Results

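The 10 genes described here belong to the integrated stress response and the unfolded protein response: ATF4, ATF3, DDIT3, TRIB3, CHAC1, ASNS, PSAT1, PHGDH, HSPA5 and XBP1. They were chosen by name, as well-known genes of the ATF4 branch and of the endoplasmic reticulum (ER) branch of these responses, among the 23399 genes of the expression table. The choice was made with earlier results of these data known. All 10 had a mean level of at least 1 eRPKM (reads on exons, scaled to transcript length and to library size) and were tested with the other genes that passed this limit, 14993 in all. In the integrated stress response, kinases that sense amino acid shortage, ER stress and other insults phosphorylate the initiation factor eIF2, general translation falls, and the ATF4 mRNA is translated more. ATF4 then switches on genes of amino acid synthesis and transport together with ATF3, DDIT3, TRIB3 and CHAC1. In the unfolded protein response, the ER sensors PERK, IRE1 and ATF6 act side by side: PERK feeds into ATF4, IRE1 splices the XBP1 mRNA, and ATF6 induces chaperones such as HSPA5. ATF4 translation and XBP1 splicing are not seen in a table of reads per gene, so the values below are mRNA levels only.

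All libraries came from U2OS-MycER cells, a human osteosarcoma cell line transduced with a retrovirus that encodes Myc fused to the estrogen receptor. The fusion protein is activated by 4-hydroxytamoxifen (OHT). Cells were reverse-transfected with siRNAs against Renilla luciferase (siCtrl) or with a pool of siRNAs against RAD21, a subunit of cohesin (siRAD21), and received 400 nM OHT or ethanol at the same time. RNA was collected 24 or 48 h later. The groups without OHT (siCtrl and siRAD21) received ethanol, and those with OHT are called siCtrl OHT and siRAD21 OHT. There were 3 libraries each of siCtrl and siCtrl OHT at 48 h and 2 libraries of each of the other 6 groups, 18 in all. The comparisons ask what RAD21 silencing did to these genes, what MycER activation did to them in control and in RAD21-depleted cells, and whether these effects depended on each other. All groups shared the MycER transgene and the transfection, every cell came from the same line, and U2OS cells that lack MycER were not analysed here, so effects of OHT on its own and of MycER cannot be told apart.

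The libraries held between 9647501 and 12678599 reads on genes. RAD21 mRNA was 18.4 ± 0.366 eRPKM (mean ± SD, n = 2) in siRAD21 and 70.7 ± 2.04 eRPKM (n = 2) in siCtrl cells at 24 h, and 11.2 ± 0.105 (n = 2) and 93.1 ± 3.96 eRPKM (n = 3) at 48 h. Counts of MYC hold any reads of the MycER transgene too. The gene had 53.4 ± 2.52 eRPKM in siCtrl and 44.7 ± 0.196 eRPKM in siRAD21 cells at 24 h (log2 fold change -0.25, adjusted p = 0.0146, limma). At 48 h it had 52.3 ± 2.33 eRPKM in siCtrl and 57.0 ± 0.812 eRPKM in siRAD21 cells (0.12, adjusted p = 0.109, limma). With OHT it had 44.9 ± 3.99 eRPKM in siCtrl OHT cells and a mean of 34.4 eRPKM in siRAD21 OHT cells. Of the 9 mesenchymal and osteosarcoma markers, VIM, SPARC and THY1 were above 50 eRPKM in every library, whereas COL1A2 and TWIST1 were at or near 0. Their summed level was 291.1 to 319.6 eRPKM in the OHT groups at 48 h and 356.0 to 409.0 eRPKM in the groups without OHT, and 4 of the 7 markers tested were called lower with OHT in both siCtrl and siRAD21 cells at 48 h. In these comparisons 17.9% and 28.6% of all genes were called in either direction. The 4 epithelial markers summed to 72.7 to 99.3 eRPKM, of which KRT8 made 64.9 to 86.7 and EPCAM 2.56 to 12.9, with KRT19 at 0. EPCAM was called higher with OHT in siCtrl and in siRAD21 cells at both times (1.05 to 1.34), and EPCAM and CDH1 were called lower in siRAD21 OHT than in siCtrl OHT cells at 48 h (-0.66 and -0.58). With OHT at 24 h 3.68 and 4.29% of all genes were called higher in siCtrl and siRAD21 cells. In siRAD21 OHT against siCtrl OHT cells at 48 h 16.2% were called. The 4 leukocyte and 3 endothelial markers summed to at most 2.996 and 2.36 eRPKM. The part of these markers and of MYC in the results was not tested. The pair of siRAD21 OHT libraries at 48 h differed by less than sampling noise (chi-square per gene of 0.984 over 13001 genes, against 1.05 to 3.99 for the other pairs of a group), so it was counted as 1 sample in means, which carry no SD. The fit used both libraries. With the pair averaged to 1 library, all calls of the 10 genes were the same, while the genes called in the interaction at 48 h went from 1094 to 825. The methods speak of biological replicates without saying how cultures were kept apart, so p-values measure the spread between these libraries.

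A gene is said to have risen or fallen when its adjusted p was below 0.05 (limma, with Benjamini-Hochberg adjustment over the 14993 genes) and its log2 fold change was above 0.5 or below -0.5. Fold changes are differences of log2(eRPKM + 0.5). The authors removed PCR duplicates. If only reads with the same start and strand were treated as duplicates, a gene could keep at most 2 reads per exon base, and ATF4 held 46.1 to 54.1% of that number in every library, HSPA5 21.6 to 35.8%, and the other 8 genes at most 30.1%. Such a limit makes fold changes of highly covered genes too small. When it was undone by calculation, an alternative added after the data were seen, the log2 fold change of ATF4 with OHT in siRAD21 cells at 48 h went from 0.29 to 0.36 and stayed inside the fold threshold. Other genes near the threshold passed it: XBP1 in siRAD21 against siCtrl cells at 48 h (-0.504) and in its change from 24 h (-0.511), DDIT3 in siCtrl OHT against siCtrl (0.519) and siRAD21 OHT against siCtrl OHT (0.516) at 48 h, PHGDH in siRAD21 OHT against siCtrl OHT (-0.513) and siCtrl (-0.539), and ASNS in siRAD21 OHT against siCtrl (0.515). No member lost a call.

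Promoter sequences are shown for the 6 members whose upstream bases hold a motif of the factors that act here. RefSeq windows reach from 250 bases before to 50 bases after a transcript's start (build GRCh38.p14), and the 10 genes have 17 of them among 34943. The ATF4 element TGATGNAA was searched for on both strands and lies in 3.62% of all windows, and in windows of ASNS, CHAC1 and ATF3. The ER stress element, CCAAT and CCACG with any 9 bases between them, to which ATF6 and XBP1 bind with NF-Y, lies in 0.0773% of all windows, and in those of HSPA5 and XBP1. The E-box CACGTG, the preferred site of Myc and Max, lies in 7.23% of all windows and among the members in ATF4 alone. No match of a motif overlaps a match of another in these windows. A match is a string of letters and not a measured binding event. The 250 upstream bases of these 6 genes follow, each 5′ to 3′ on the gene's strand with the match in capitals, and each was found at exactly 1 place of the GRCh37 genome, where its coordinates are given. ASNS (chr7:97501721-97501970, minus strand), ATF3 (chr1:212738499-212738748, plus strand) and CHAC1 (chr15:41245419-41245668, plus strand, with the element on the opposite strand) hold the ATF4 element. HSPA5 (chr9:128003623-128003872, minus strand) and XBP1 (chr22:29196558-29196807, minus strand) hold the ER stress element, and ATF4 (chr22:39916314-39916563, plus strand) the E-box.
ASNS: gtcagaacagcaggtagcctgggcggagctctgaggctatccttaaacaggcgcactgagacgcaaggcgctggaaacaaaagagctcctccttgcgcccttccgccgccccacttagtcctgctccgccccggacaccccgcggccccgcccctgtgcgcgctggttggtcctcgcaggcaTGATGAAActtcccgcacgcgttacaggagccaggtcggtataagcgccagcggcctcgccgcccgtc
ATF3: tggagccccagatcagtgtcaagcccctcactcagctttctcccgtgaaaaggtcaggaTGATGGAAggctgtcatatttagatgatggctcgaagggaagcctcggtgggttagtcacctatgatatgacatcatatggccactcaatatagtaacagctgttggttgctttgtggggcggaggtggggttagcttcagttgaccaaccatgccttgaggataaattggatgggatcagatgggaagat
CHAC1: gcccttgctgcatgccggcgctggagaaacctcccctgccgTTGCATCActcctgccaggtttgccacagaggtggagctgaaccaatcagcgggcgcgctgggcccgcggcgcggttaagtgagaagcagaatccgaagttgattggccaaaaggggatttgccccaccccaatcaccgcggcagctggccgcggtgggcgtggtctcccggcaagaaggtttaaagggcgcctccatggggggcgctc
HSPA5: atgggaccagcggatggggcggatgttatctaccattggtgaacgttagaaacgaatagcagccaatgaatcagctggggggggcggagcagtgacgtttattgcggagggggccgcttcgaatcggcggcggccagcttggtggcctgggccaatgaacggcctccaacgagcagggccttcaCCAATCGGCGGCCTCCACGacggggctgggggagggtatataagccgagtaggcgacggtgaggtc
XBP1: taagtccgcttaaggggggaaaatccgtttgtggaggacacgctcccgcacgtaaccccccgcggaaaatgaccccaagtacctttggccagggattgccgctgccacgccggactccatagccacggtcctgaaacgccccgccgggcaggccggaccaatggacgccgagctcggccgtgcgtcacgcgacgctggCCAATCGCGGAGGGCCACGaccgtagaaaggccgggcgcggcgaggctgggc
ATF4: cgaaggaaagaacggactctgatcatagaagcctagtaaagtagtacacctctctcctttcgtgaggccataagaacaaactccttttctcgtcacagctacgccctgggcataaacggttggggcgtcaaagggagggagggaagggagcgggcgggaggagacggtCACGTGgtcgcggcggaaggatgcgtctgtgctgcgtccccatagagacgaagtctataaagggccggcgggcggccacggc

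In these sequences the ATF4 element lies at -68 to -61 from the start of ASNS, at -191 to -184 of ATF3 and at -209 to -202 of CHAC1. The ER stress element lies at -66 to -48 of HSPA5 and at -52 to -34 of XBP1, and the E-box at -82 to -77 of ATF4. DDIT3, TRIB3, PSAT1 and PHGDH hold none of these motifs in their windows, and genes both with and without a motif were called in the comparisons that follow.

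Before the comparisons, the plain levels set the scale. eRPKM is per length of transcript, so levels may be compared between genes, but only roughly if duplicate removal capped highly covered genes. With that removal undone by calculation, siCtrl cells at 48 h had 119.0 eRPKM of ATF4 and 17.7 eRPKM of CHAC1. The values below are those before this step. In siCtrl cells at 48 h ATF4 was the most abundant of the 10, at 95.6 ± 1.77 eRPKM (n = 3). HSPA5 followed at 48.8 ± 2.87, XBP1 at 44.6 ± 2.22, ASNS at 44.5 ± 1.36, PSAT1 at 39.4 ± 1.595 and PHGDH at 30.0 ± 0.478 eRPKM. DDIT3 had 21.9 ± 2.15, CHAC1 18.5 ± 1.34, ATF3 18.1 ± 7.12 and TRIB3 17.7 ± 1.48 eRPKM. The libraries of HSPA5 overlapped those of XBP1, and those of XBP1 overlapped ASNS, whereas ATF4, PSAT1 and PHGDH stood clear of their neighbours in this order. DDIT3 was above CHAC1 in every siCtrl library at 48 h, and ATF3 overlapped DDIT3, CHAC1 and TRIB3. Over all 18 libraries, CHAC1 covered the widest range, 6.34 to 34.8 eRPKM, which is a ratio of 5.48 between its highest and lowest library. ATF3 covered a ratio of 3.86, PHGDH of 3.13 and TRIB3 of 2.94. ATF4 covered a ratio of 1.33 and HSPA5 of 1.48, the smallest of the 10.

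**Figure D1:**
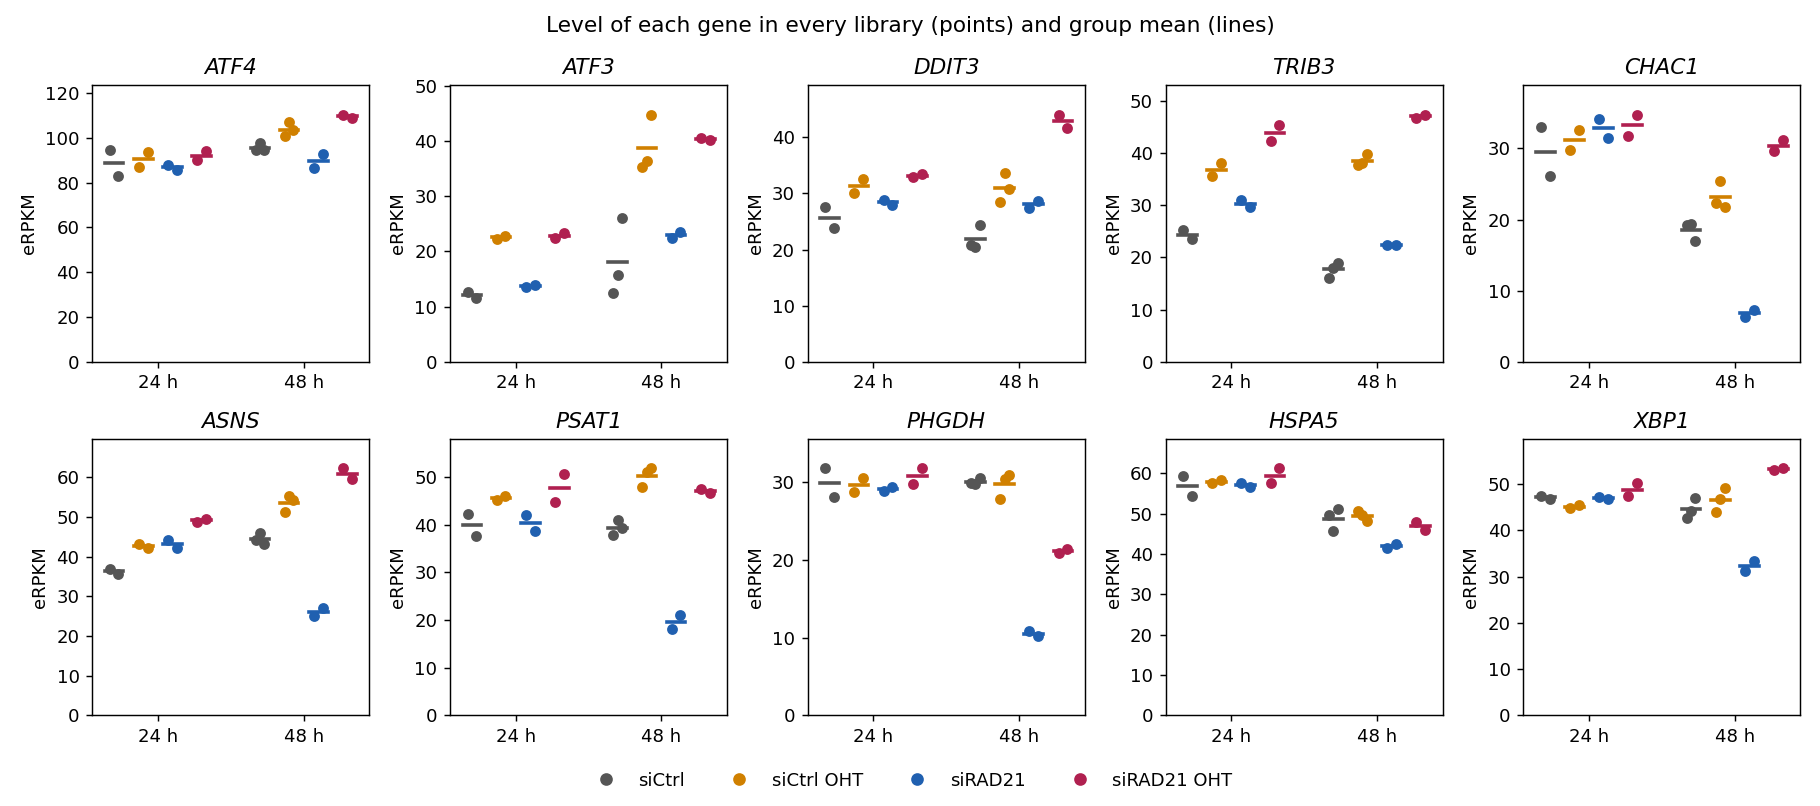
Level of each of the 10 genes in eRPKM (vertical axis, from 0, with a scale of its own in every panel) in every library (points) at 24 and 48 h, with a line at each group mean; colours mark siCtrl, siCtrl OHT, siRAD21 and siRAD21 OHT. The siRAD21 libraries at 48 h lie lowest for CHAC1 (6.34 and 7.35 eRPKM), ASNS, PSAT1, PHGDH, XBP1 and HSPA5. The OHT libraries lie above those without OHT for TRIB3 and ATF3 at both times.

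RAD21 silencing without OHT lowered the amino acid synthesis genes and CHAC1 at 48 h. Of the 10 genes, PHGDH, CHAC1, PSAT1 and ASNS fell and none rose, where 23.7% of all genes tested were called in either direction and 11.2% were called lower. The stress transcription factors DDIT3 and ATF3 and the pseudokinase TRIB3 had positive log2 fold changes of 0.33 to 0.41, short of the fold threshold, and ATF4 itself differed by -0.09. The median log2 fold change of the 10 genes was -0.34, beside -0.01 over all genes tested. The RNA came from whole cultures, so fewer cells that express a gene and less of its RNA per cell cannot be told apart.

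ASNS (chr7:97480989-97501854, minus strand, GRCh37) encodes asparagine synthetase. At 48 h it had 44.2, 46.0 and 43.3 eRPKM in the siCtrl libraries and 25.2 and 27.2 in the siRAD21 libraries. The siRAD21 libraries were well below every siCtrl library. Its log2 fold change was -0.75 (adjusted p = 9.46e-09 by limma, standard error 0.046). Exons of ASNS share up to 2415 bases with an unnamed gene of the annotation that has no values in the table.

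PHGDH (chr1:120191034-120286841, plus strand) encodes phosphoglycerate dehydrogenase, the first enzyme of serine synthesis, and PSAT1 (chr9:80912041-80945009, plus strand) the phosphoserine aminotransferase of the next step. PHGDH had 29.8, 29.7 and 30.6 eRPKM in siCtrl and 10.8 and 10.1 eRPKM in siRAD21 cells. PSAT1 had 37.8, 41.0 and 39.3 eRPKM in siCtrl and 18.1 and 21.0 eRPKM in siRAD21 cells. Neither gene's groups overlapped, and PHGDH showed the largest fall of the 10 genes. The log2 fold change was -1.48 for PHGDH (standard error 0.059, adjusted p = 2.20e-10) and -0.99 for PSAT1 (standard error 0.072, adjusted p = 5.12e-08, both limma).

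CHAC1 (chr15:41245160-41248710, plus strand) encodes a gamma-glutamylcyclotransferase that degrades glutathione and is induced by ATF4. It had 19.2, 19.4 and 17.0 eRPKM in siCtrl and 6.34 and 7.35 eRPKM in siRAD21 cells at 48 h, which rest on 286 to 303 and on 108 and 117 reads. The groups were far apart, with a log2 fold change at -1.37 (adjusted p = 5.41e-08 by limma, standard error 0.0999).

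TRIB3 (chr20:343479-378203, plus strand) encodes a pseudokinase that is induced by ATF4 and DDIT3 and acts back on them. It had 16.1, 17.98 and 19.0 eRPKM in siCtrl and 22.3 and 22.5 eRPKM in siRAD21 cells, so all siRAD21 libraries were above all siCtrl libraries. The log2 fold change was 0.33 (95% interval 0.20 to 0.46, adjusted p = 0.000302, limma), short of the fold threshold. DDIT3 (chr12:57910371-57915520, minus strand) encodes CHOP, the transcription factor linked to cell death under ER stress. It had 20.8, 20.5 and 24.4 eRPKM in siCtrl and 27.4 and 28.7 eRPKM in siRAD21 cells, without overlap, and a log2 fold change of 0.35 (95% interval 0.17 to 0.53, adjusted p = 0.00236, limma). DDIT3 shares up to 355 exon bases with its neighbours MARS1, MBD6 and an unnamed gene, and the libraries were made with a kit that does not mark strand.

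ATF3 (chr1:212738676-212794119, plus strand) encodes a stress-induced transcription factor of the ATF/CREB family. It was the most variable of the 10 among control libraries, with 12.4, 15.7 and 26.1 eRPKM in siCtrl and 22.5 and 23.5 eRPKM in siRAD21 cells at 48 h. The third siCtrl library was above both siRAD21 libraries, and the groups overlapped. The log2 fold change was 0.41 (95% interval -0.02 to 0.84, adjusted p = 0.0950, limma). Without siCtrl 48 h replicate 3 it was 0.70 (adjusted p = 0.000115, limma), which passes the test. With the replicate numbers as a block, it was 0.61 (adjusted p = 0.001003, limma) and passed as well.

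ATF4 (chr22:39915700-39918688, plus strand) had 94.6, 97.6 and 94.6 eRPKM in siCtrl and 86.3 and 92.8 eRPKM in siRAD21 cells at 48 h. The siRAD21 libraries were lower by less than the fall of any of the 4 genes above, with a log2 fold change of -0.09 (95% interval -0.21 to 0.02, adjusted p = 0.153, limma). HSPA5 (chr9:127997132-128003661, minus strand) encodes BiP, the main HSP70 chaperone of the ER. It had 49.7, 45.6 and 51.1 eRPKM in siCtrl and 41.4 and 42.4 eRPKM in siRAD21 cells (log2 fold change -0.22, 95% interval -0.33 to -0.11, adjusted p = 0.00241, limma). XBP1 (chr22:29190543-29196585, minus strand) encodes the transcription factor made active by IRE1. It had 42.6, 44.3 and 47.0 eRPKM in siCtrl and 31.2 and 33.5 eRPKM in siRAD21 cells. Its groups were apart, and its log2 fold change of -0.46 (95% interval -0.57 to -0.35, adjusted p = 3.77e-06, limma) lay just inside the fold threshold. Without siRAD21 48 h replicate 2 it was -0.51, past the threshold.

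At 24 h none of the 10 genes was called in siRAD21 against siCtrl cells, where 8.43% of all genes were. Their log2 fold changes ran from -0.03 for PHGDH to 0.31 for TRIB3. In limma 2 of the 10, TRIB3 and ASNS, had an unadjusted p under 0.05, as did 5535 of the 14993 genes tested. The limma-voom fit on recovered reads called none of the 10 either. ASNS had 36.9 and 35.8 eRPKM in siCtrl and 44.3 and 42.1 eRPKM in siRAD21 cells at 24 h (log2 fold change 0.25, 95% interval 0.14 to 0.35, adjusted p = 0.00241, limma). Its direction at 24 h was thus opposite to that at 48 h. CHAC1 had 33.0 and 26.1 eRPKM in siCtrl and 34.2 and 31.5 eRPKM in siRAD21 cells, PSAT1 had 42.2 and 37.7 against 42.1 and 38.6, and PHGDH had 31.7 and 28.0 against 28.8 and 29.4. For these 3 genes the groups overlapped.

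The effect of RAD21 silencing at 48 h minus that at 24 h was tested directly, and CHAC1, PHGDH, PSAT1 and ASNS passed, all toward a lower level at 48 h, where 10.7% of all genes were called and 6.86% were called lower. The difference of log2 fold changes was -1.53 for CHAC1 (standard error 0.148, adjusted p = 1.11e-05, limma) and -1.44 for PHGDH (standard error 0.088, adjusted p = 4.19e-07, limma). It was -1.01 for PSAT1 (adjusted p = 2.49e-05) and -0.999 for ASNS (adjusted p = 7.30e-07, both limma). XBP1 came to -0.45 (adjusted p = 0.000800, limma), inside the fold threshold, and to -0.50, past it, without siRAD21 48 h replicate 2. In siCtrl cells the levels also moved with time. CHAC1 was lower at 48 than at 24 h, with a log2 fold change of -0.65 (adjusted p = 0.000158, limma), the only 1 of the 10 called, where 12.4% of all genes were called and 6.91% were called lower. This call was lost without siCtrl 24 h replicate 1 (-0.48). TRIB3 had -0.45 and ASNS 0.29 in the same comparison, and TRIB3 came to -0.50, past the threshold, without siCtrl 48 h replicate 3.

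**Figure D2:**
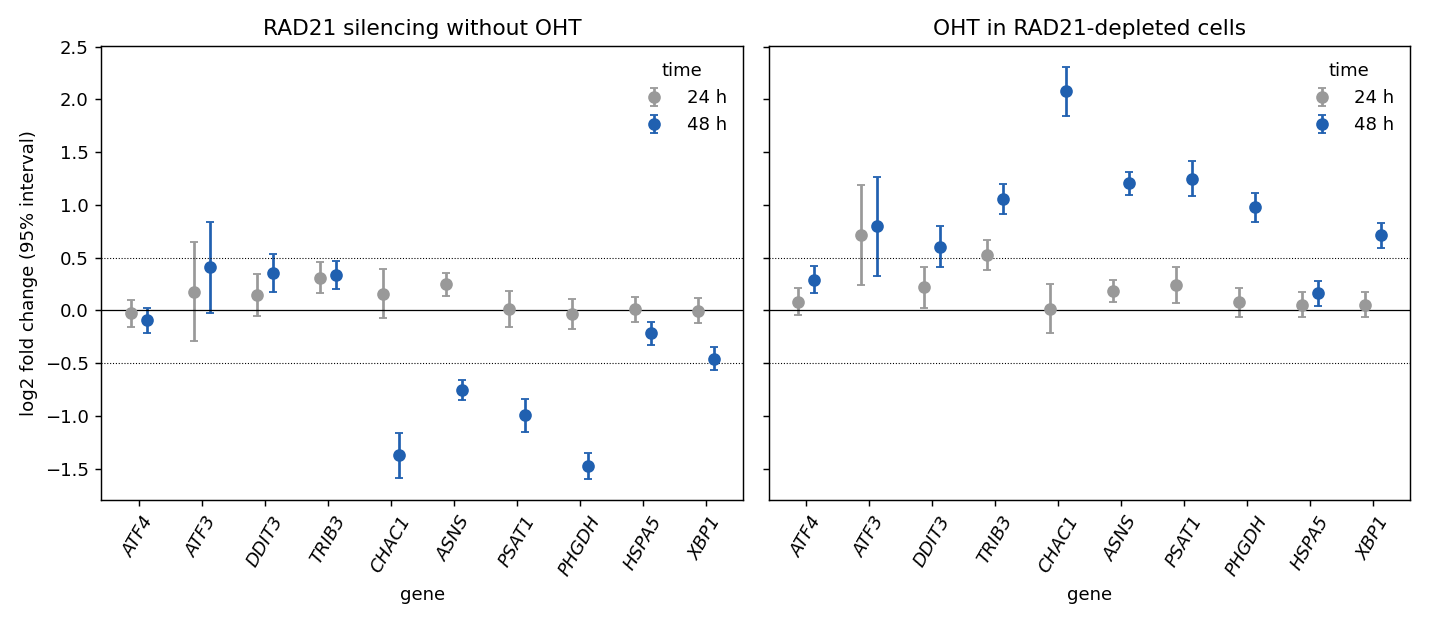
Log2 fold change of each gene with its 95% interval (vertical axis) at 24 h (grey) and 48 h (blue), for RAD21 silencing without OHT (left) and for OHT in RAD21-depleted cells (right); dotted lines mark the fold threshold of 0.5. At 24 h the amino acid genes and CHAC1 lie between -0.03 and 0.25 in both panels, and at 48 h they lie between -1.48 and -0.75 on the left and between 0.98 and 2.08 on the right. Both panels use the same siRAD21 libraries, with opposite sign.

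OHT raised ATF3 and TRIB3 in control cells at both times. At 24 h these were the 2 genes of the 10 called in siCtrl OHT against siCtrl cells, where 8.78% of all genes were called and 3.68% were called higher. At 48 h they were again the 2 genes called, where 17.9% were called and 7.78% were called higher.

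TRIB3 had 25.2 and 23.5 eRPKM in siCtrl and 35.6 and 38.0 eRPKM in siCtrl OHT cells at 24 h. At 48 h it had 37.7, 38.2 and 39.8 eRPKM in siCtrl OHT cells, against 16.1 to 19.0 in siCtrl. The levels with OHT overlapped between the times, and those without OHT were lower at 48 h. On the log2 scale the rise was 0.59 at 24 h (standard error 0.066, adjusted p = 2.66e-05) and 1.10 at 48 h (standard error 0.054, adjusted p = 2.62e-09, both limma). The difference between the times, 0.52 (adjusted p = 0.00515, limma), was past the threshold for TRIB3 alone among the 10, where 1.77% of all genes were called and 0.714% were called higher. It was between 0.45 and 0.49, short of the fold threshold, without siCtrl 24 h replicate 1, siCtrl 48 h replicate 1, siCtrl OHT 24 h replicate 1 or siCtrl OHT 48 h replicate 3, and under quantile normalization.

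ATF3 had 12.6 and 11.6 eRPKM in siCtrl and 22.3 and 22.8 eRPKM in siCtrl OHT cells at 24 h. At 48 h it had 35.3, 36.4 and 44.8 eRPKM in siCtrl OHT cells, above the 12.4 to 26.1 eRPKM of siCtrl cells. The groups did not overlap at either time. On the log2 scale ATF3 rose by 0.87 at 24 h (standard error 0.219, adjusted p = 0.00905) and by 1.14 at 48 h (standard error 0.179, adjusted p = 0.000101, both limma). At 24 h the adjusted p was 0.0580 without siCtrl 24 h replicate 2 and 0.0536 without siCtrl OHT 24 h replicate 2, which left the fold change at 0.82 and 0.86 (limma).

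DDIT3 had 28.4, 33.7 and 30.8 eRPKM in siCtrl OHT cells at 48 h, above all siCtrl libraries (20.5 to 24.4). Its difference on the log2 scale, 0.49 (adjusted p = 7.72e-05 by limma, standard error 0.074), was just inside the fold threshold, and it was past it, at 0.57 and 0.55, without siCtrl 48 h replicate 3 or siCtrl OHT 48 h replicate 1. The amino acid genes had smaller values: ASNS had 51.3, 55.2 and 54.4 eRPKM in siCtrl OHT cells (0.27, adjusted p = 8.48e-05), and PSAT1 47.9, 51.1 and 51.8 eRPKM (0.35, adjusted p = 0.000402, both limma). Both lay above all siCtrl libraries. PHGDH had 27.8, 30.4 and 30.9 eRPKM, which overlapped the siCtrl libraries, and a log2 fold change of -0.02 (95% interval -0.13 to 0.10). CHAC1 had 22.3, 25.4 and 21.8 eRPKM (0.31, adjusted p = 0.00885, limma). ATF4 had 100.6, 107.0 and 103.3 eRPKM (0.12, 95% interval 0.01 to 0.22), HSPA5 50.6, 49.8 and 48.1 eRPKM (0.02, 95% interval -0.08 to 0.12), and XBP1 43.9, 46.7 and 49.2 eRPKM (0.06, 95% interval -0.04 to 0.16).

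In RAD21-depleted cells at 48 h, OHT raised 8 of the 10 genes: CHAC1, PSAT1, ASNS, TRIB3, PHGDH, ATF3, XBP1 and DDIT3. Here 28.6% of all genes were called, and 12.4% were called higher. ATF4 and HSPA5 had positive values inside the fold threshold. The median log2 fold change of the 10 genes was 0.89, beside -0.02 over all genes tested. The 4 genes that had fallen with RAD21 silencing were among those raised, and the comparison shares its siRAD21 libraries with the silencing comparison, so the values of both are given side by side and were not correlated.

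CHAC1 had 29.7 and 31.1 eRPKM in siRAD21 OHT cells, against 6.34 and 7.35 without OHT, the largest rise of the 10 genes. Its change on the log2 scale was 2.08 (adjusted p = 3.82e-09 by limma, standard error 0.109). ASNS had 62.3 and 59.6 eRPKM in siRAD21 OHT cells, the highest of its 18 libraries, and changed by 1.20 on the log2 scale (adjusted p = 5.29e-10 by limma, standard error 0.050). PSAT1 had 47.4 and 46.7 eRPKM and changed by 1.25 (adjusted p = 1.79e-08 by limma, standard error 0.079). PHGDH had 20.8 and 21.4 eRPKM, above its siRAD21 libraries and below every other library of the series, and changed by 0.98 (adjusted p = 2.87e-08 by limma, standard error 0.065).

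TRIB3 had 46.7 and 47.4 eRPKM in siRAD21 OHT cells (1.05, adjusted p = 1.79e-08, limma) and ATF3 40.6 and 40.2 eRPKM (0.80, adjusted p = 0.00608, limma). DDIT3 had 44.1 and 41.7 eRPKM, higher than in any other library, and changed by 0.60 (adjusted p = 6.27e-05 by limma, standard error 0.091). It came to 0.45, inside the fold threshold, under quantile normalization. XBP1 had 53.1 and 53.5 eRPKM, against 31.2 and 33.5 without OHT (0.71, adjusted p = 1.40e-07, limma). ATF4 had 110.3 and 108.7 eRPKM, its highest levels (0.29, 95% interval 0.16 to 0.42, adjusted p = 0.000830, limma), and HSPA5 had 47.8 and 46.0 eRPKM (0.16, 95% interval 0.04 to 0.28, adjusted p = 0.0225, limma). Over the alternatives tried, the log2 fold change ran from 0.11 to 0.36 for ATF4 and from 0.0027 to 0.19 for HSPA5.

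At 24 h only ATF3 and TRIB3 were called in siRAD21 OHT against siRAD21 cells, as in control cells, where 11.9% of all genes were called and 4.29% were called higher. TRIB3 had 42.3 and 45.5 eRPKM with OHT and 30.9 and 29.7 without (0.53, adjusted p = 4.40e-05, limma). ATF3 had 22.4 and 23.4 eRPKM with OHT and 13.6 and 13.9 without (0.71, adjusted p = 0.0210, limma). The libraries of neither gene overlapped. Both calls depended on single libraries: the adjusted p of ATF3 was 0.0618 to 0.0980 without any 1 of the 4 libraries (limma), and TRIB3 came to 0.498 without siRAD21 24 h replicate 2 and to 0.475 without siRAD21 OHT 24 h replicate 2. TRIB3 also came to 0.48 under quantile normalization. CHAC1 had a log2 fold change of 0.02 at 24 h (95% interval -0.22 to 0.25), in contrast to its rise at 48 h.

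The siRNA by OHT interaction compares the effect of OHT in siRAD21 cells with that in siCtrl cells, and it uses the same siRAD21 libraries as the silencing comparison. At 48 h, 5 genes passed, all with a larger effect of OHT in RAD21-depleted cells, where 7.30% of all genes were called and 3.33% were called higher. The interaction was 1.76 for CHAC1 (standard error 0.141, adjusted p = 6.25e-06), 0.99 for PHGDH (standard error 0.084, adjusted p = 8.49e-06) and 0.94 for ASNS (standard error 0.065, adjusted p = 1.41e-06, all limma). It was 0.90 for PSAT1 (adjusted p = 7.53e-05) and 0.65 for XBP1 (adjusted p = 7.14e-05, both limma). TRIB3, whose effect of OHT was 1.10 in siCtrl and 1.05 in siRAD21 cells, had an interaction of -0.05 (95% interval -0.23 to 0.13), and DDIT3 had 0.11 (95% interval -0.14 to 0.37). ATF3 had -0.34 (95% interval -0.95 to 0.26) and came to -0.64 (adjusted p = 0.0105, limma) without siCtrl 48 h replicate 3. ATF4 and HSPA5 had 0.17 and 0.14, which did not pass. At 24 h no gene of the table was called in limma (0.00%), with 906 genes at an unadjusted p under 0.05, none of them among the 10. The limma-voom fit on recovered reads called 19 genes there, again none of the 10.

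**Figure D3:**
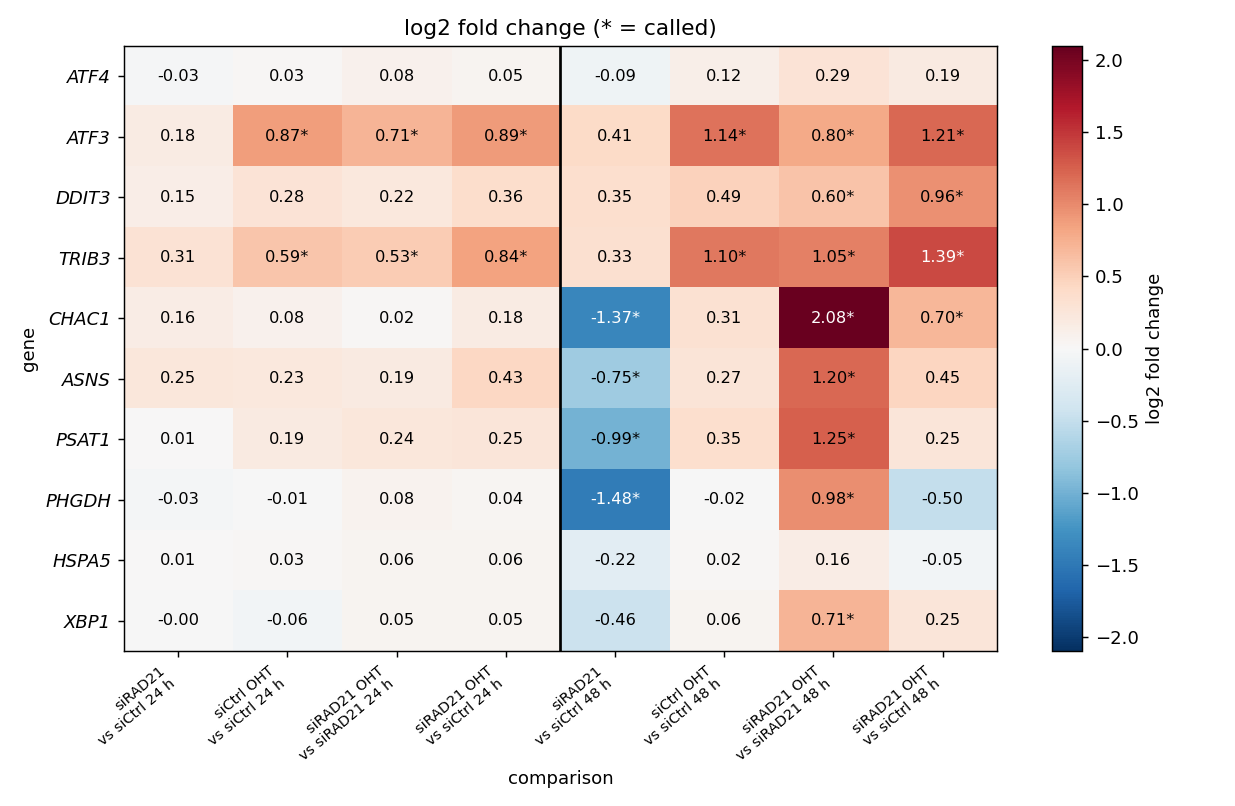
Log2 fold change of each gene (rows) in the 4 comparisons at 24 h (left of the line) and at 48 h (right), as colour and number; an asterisk marks an adjusted p below 0.05 with a log2 fold change past 0.5. Plotted at each time are siRAD21 OHT cells against siRAD21 and against siCtrl cells, siCtrl OHT against siCtrl, and siRAD21 against siCtrl. ATF3 and TRIB3 carry an asterisk in the 3 of them with OHT at both times. CHAC1, ASNS, PSAT1 and PHGDH carry none at 24 h or in siCtrl OHT against siCtrl at 48 h, and all 4 carry one at 48 h on RAD21 silencing (-1.37, -0.75, -0.99 and -1.48) and with OHT in RAD21-depleted cells.

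With OHT in both arms, none of the 10 genes was called in siRAD21 OHT against siCtrl OHT cells, at 24 h (6.47% of all genes called) or at 48 h (16.2% called). At 24 h 2 of the 10 had an unadjusted p under 0.05 in limma, ASNS (0.20) and TRIB3 (0.25). Of the 14993 genes tested, 4648 had such a p at 24 h. The limma-voom fit called none of the 10 at either time. At 48 h 6 of the 10 had an unadjusted p under 0.05 in limma, as did 7745 of the 14993 genes tested. Of the 10, 2 lay close to the fold threshold. PHGDH was lower, at 20.8 and 21.4 eRPKM against 27.8 to 30.9 (-0.48, adjusted p = 1.44e-05, limma), and DDIT3 was higher, at 44.1 and 41.7 against 28.4 to 33.7 eRPKM (0.46, adjusted p = 0.000412, limma). With the replicate numbers as a block DDIT3 came to 0.50 (adjusted p = 0.000696, limma) and was called. PHGDH passed without siCtrl OHT 48 h replicate 1 (-0.53) or siRAD21 OHT 48 h replicate 2 (-0.50), and DDIT3 without siCtrl OHT 48 h replicate 2 (0.53) or siRAD21 OHT 48 h replicate 2 (0.50). CHAC1 had 0.39, TRIB3 0.28, XBP1 0.19 and ASNS 0.18, and PSAT1 had -0.09 (95% interval -0.25 to 0.06).

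Against siCtrl cells without OHT, the combination of siRAD21 and OHT left 4 genes higher at 48 h: TRIB3 (1.39, adjusted p = 2.39e-10), ATF3 (1.21, adjusted p = 0.000122), DDIT3 (0.96, adjusted p = 2.29e-07) and CHAC1 (0.70, adjusted p = 3.02e-05, all limma). In this comparison 28.0% of all genes were called and 13.1% were called higher. ASNS had 0.45, PSAT1 0.25, XBP1 0.25 and ATF4 0.19, and HSPA5 -0.05 (95% interval -0.16 to 0.06). PHGDH had -0.499, just inside the threshold, and passed it without siCtrl 48 h replicate 1, siCtrl 48 h replicate 2 or siRAD21 OHT 48 h replicate 2 (-0.50 to -0.52). It also passed with a pseudocount of 0.1 (-0.51), quantile normalization (-0.52), limma-voom (-0.51) and duplicate removal undone (-0.54). It was the only 1 of the 4 genes that fell with RAD21 silencing whose level in siRAD21 OHT cells was below that of siCtrl cells. At 24 h ATF3 (0.89) and TRIB3 (0.84) were called, where 13.1% of all genes were called and 6.62% were called higher.

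The 10 genes followed different patterns over the 8 groups. Patterns were compared by the root-mean-square difference of the group means of log2(eRPKM + 0.5), each gene centred on its own mean. HSPA5 and XBP1 were the closest pair (0.17), followed by ATF4 and XBP1 (0.18) and by ASNS and PSAT1 (0.18). ATF3 and CHAC1 were the farthest apart (0.94). Because a gene that varies little is close to any other such gene, the distance also reflects how much a gene moves. Among the 10906 genes with at least 5 eRPKM on average, the nearest to ASNS were RFC3 (0.12), PCK2 (0.13) and EIF4EBP1 (0.13). PCK2, the mitochondrial phosphoenolpyruvate carboxykinase, and EIF4EBP1, a repressor of translation initiation, are both known ATF4 targets, and RFC3 is a subunit of the replication clamp loader. The nearest to DDIT3 were ABCC4 (0.03), LINC00460 (0.05) and NUDT11 (0.05), and the nearest to HSPA5 were PPP2R4 (0.03), GLE1 (0.04) and RABL6 (0.04).

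Further enzymes of amino acid metabolism moved in part as ASNS, PSAT1 and PHGDH did. The list held 14 enzymes of serine, glycine, proline and folate metabolism and of other amino acid steps. Of these, 6 fell and none rose with RAD21 silencing at 48 h, where 11.2% of all genes were called lower. Their median log2 fold change was -0.39 beside -0.01 over all genes. CBS, which condenses serine with homocysteine, fell from 28.3 ± 0.497 (n = 3) to 9.06 ± 0.707 eRPKM (n = 2; -1.59, adjusted p = 1.31e-10, limma). SHMT1, the cytosolic serine hydroxymethyltransferase, fell from 14.5 ± 1.38 to 4.52 ± 0.0830 eRPKM (-1.58, adjusted p = 2.53e-10, limma), and BCAT1, a transaminase of branched-chain amino acids, from 37.2 ± 0.703 to 20.4 ± 0.289 eRPKM (-0.85, adjusted p = 2.61e-08, limma). With OHT in control cells 1 of the 14 rose, where 7.78% of all genes were called higher: CTH, which makes cysteine from cystathionine, went from 3.18 ± 0.280 to 9.29 ± 1.56 eRPKM (n = 3 each; 1.403, adjusted p = 4.48e-08, limma). With OHT in RAD21-depleted cells 13 of the 14 rose, where 12.4% of all genes were called higher, and all 14 values were positive, with a median of 0.63 beside -0.02. The largest were CTH (1.81 to 9.16 eRPKM, 2.07), CBS (9.06 to 22.6 eRPKM, 1.28) and GPT2, an alanine transaminase (12.8 to 26.7 eRPKM, 1.03). In the interaction at 48 h 6 of the 14 passed, all positive, where 3.33% of all genes were called higher. RAD21 silencing, OHT in RAD21-depleted cells and the interaction share the siRAD21 libraries at 48 h, so their values are not independent. The same holds for the lists that follow. All lists were chosen with earlier results of these data known. At 24 h 1 of the 14 was called on RAD21 silencing, where 8.43% of all genes were, ALDH1L2, which rose by 0.68 (adjusted p = 0.00537, limma).

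Other genes linked to ATF4 and CHOP were split on RAD21 silencing. Of 20 in the list, 19 were tested, and at 48 h 5 rose and 5 fell, where 23.7% of all genes were called, with a median of -0.09. GDF15, a stress-induced cytokine, rose from 6.30 ± 0.641 to 23.3 ± 2.74 eRPKM (1.81, adjusted p = 2.63e-07), BBC3, the apoptosis inducer PUMA, from 19.2 ± 2.90 to 38.5 ± 2.05 eRPKM (0.99, adjusted p = 1.98e-06), and SESN2, a sestrin, from 23.9 ± 1.77 to 46.8 ± 0.498 eRPKM (0.96, adjusted p = 1.04e-08, all limma). These 3 genes are also known targets of p53. SLC7A11, the cystine transporter, fell from 22.7 ± 0.739 to 10.7 ± 0.146 eRPKM (-1.06, adjusted p = 1.07e-08, limma), CEBPB from 23.0 ± 1.68 to 12.4 ± 0.811 eRPKM (-0.87, adjusted p = 1.77e-05, limma), and FGF21, a hormone at low level here, from 2.06 ± 0.735 to 0.796 ± 0.0647 eRPKM (-0.94, adjusted p = 0.00126, limma). With OHT, 4 rose and none fell in control cells, where 7.78% of all genes were called higher, with GDF15 at 1.16, FGF21 at 1.04 and the growth factor VEGFA at 0.55. In RAD21-depleted cells 8 rose and none fell, where 12.4% were called higher, led by FGF21 (1.81), SLC7A11 (0.92) and VEGFA (0.91). At 24 h 4 rose and none fell on RAD21 silencing, where 8.43% of all genes were called: GDF15 (0.85), BBC3 (0.78), DDIT4 (0.57) and SESN2 (0.56).

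On the ER side of the response, 3 of 20 ER chaperones and folding enzymes rose and 3 fell with RAD21 silencing at 48 h, where 23.7% of all genes were called, and the median was -0.14. ERO1LB, an ER oxidase, rose by 0.89, the J-protein DNAJB9 by 0.58 and the disulfide isomerase PDIA5 by 0.55, whereas SDF2L1 fell from 52.4 ± 4.87 to 23.9 ± 1.21 eRPKM (-1.11, adjusted p = 8.45e-08, limma), MANF from 46.9 ± 2.02 to 28.7 ± 0.632 eRPKM (-0.70, adjusted p = 1.09e-06, limma) and DNAJC3 from 14.4 ± 0.568 to 8.98 ± 0.183 eRPKM (-0.65, adjusted p = 2.60e-06, limma). With OHT in control cells, PDIA5 rose (0.99) and SIL1, an exchange factor of HSPA5, fell (-0.60), where 17.9% of all genes were called, and the median was -0.06. With OHT in RAD21-depleted cells PDIA5 (1.02), SDF2L1 (0.81) and MANF (0.52) rose and ERO1LB fell (-0.80), where 28.6% of all genes were called, with a median of 0.13. Of 17 tested genes of ER-associated degradation, 1 rose on RAD21 silencing at 48 h, EDEM1, from 23.9 ± 0.447 to 40.7 ± 0.0729 eRPKM (0.76, adjusted p = 4.19e-09, limma). None was called with OHT in control cells, and in RAD21-depleted cells UBE2G2 rose (0.63) and SYVN1 fell (-0.57). The shares of all genes called were again 23.7, 17.9 and 28.6% in these comparisons, in this order.

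Among 16 stress sensors, eIF2 kinases and phosphatases, the sensor ERN1 (IRE1), from 1.66 ± 0.242 to 3.04 ± 0.290 eRPKM (0.72, adjusted p = 0.00134, limma), and the protease MBTPS2, from means of 1.65 to 3.13 eRPKM (0.76, adjusted p = 0.000591, limma), rose on RAD21 silencing at 48 h. Both were at low levels, and 23.7% of all genes were called in this comparison. CREB3L2 fell with OHT in control cells (-0.64) and in RAD21-depleted cells (-0.62), where MBTPS2 also fell (-0.76). Of all genes, 17.9% were called with OHT in control cells and 28.6% in RAD21-depleted cells. Of 15 tested cytosolic heat shock genes, 1 fell on RAD21 silencing, DNAJB1, from 81.9 ± 1.04 to 55.7 ± 1.93 eRPKM (-0.55, adjusted p = 9.62e-07, limma), and none was called with OHT in either kind of cell, with medians of 0.19 and 0.25. The shares of all genes called beside the heat shock list are those given for the sensors. At 24 h, no gene of the degradation, sensor and heat shock lists was called in the 3 comparisons, and among the ER chaperones PDIA5 rose with OHT in control (0.71) and in RAD21-depleted cells (0.54). At that time 8.43% of all genes were called on RAD21 silencing, and 8.78 and 11.9% with OHT in control and in RAD21-depleted cells.

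**Figure D4:**
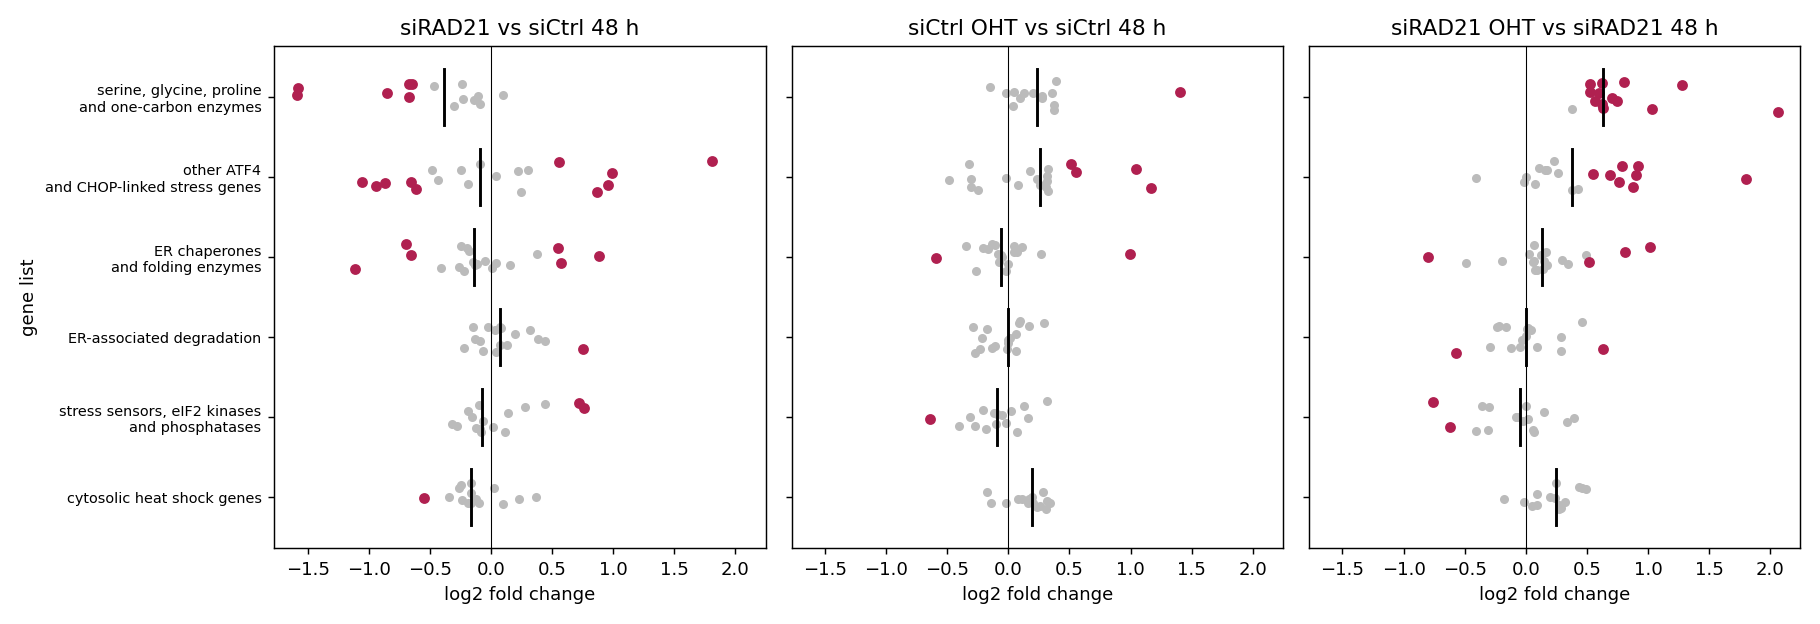
Log2 fold change (horizontal axis) of every tested gene of the 6 further gene lists (rows) at 48 h on RAD21 silencing, with OHT in control cells and with OHT in RAD21-depleted cells (panels from left to right); red points are called, grey points are not, and black bars mark list medians. The enzyme list has a median of -0.39 in the left panel and of 0.63 in the right panel, whereas the medians of ER-associated degradation and of stress sensors stay between -0.09 and 0.07. The left and right panels use the same siRAD21 libraries, with opposite sign, so they are not independent.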

How the data were processed

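RNA of U2OS-MycER cells was depleted of ribosomal RNA and sequenced in 18 libraries. The deposited values are eRPKM (RPKM over exons): per the labels and methods, the authors trimmed reads, aligned them to hg19 with TopHat2 (version 2.0.8), removed PCR duplicates and scaled exonic reads by transcript length and library size. The submitters' processing notes name featureCounts (version 1.4.5) as well. The authors' own differential expression (DESeq2) was not used here.

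Every value could be read back as whole reads in 23399 of 23399 genes (tolerance 0.01 reads), at depths of 9647501 to 12678599 reads per library. Differences were tested on log2(eRPKM + 0.5) with limma 3.58.1 (R 4.3.3), with a mean-variance trend, 1 mean for each of 8 groups and all 18 libraries, over the 14993 genes with a mean of at least 1 eRPKM. P-values were adjusted by the Benjamini-Hochberg method within each of 15 comparisons. A gene was called at an adjusted p under 0.05 with its log2 fold change beyond 0.5 in either direction. The scale understates changes of genes near the pseudocount. The fit was tested on simulated reads with the same set spread for every gene, which was not the spread of these libraries. There it recovered 190 of 200 changed genes in siRAD21 against siCtrl at 48 h, with 8 false calls. That result does not measure the error rate in these libraries. Tables were made with pandas 2.3.3 and numpy 2.4.6 under Python 3.11.15, and drawings with matplotlib 3.10.9.

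The 10 genes were all named. Of each other list, the 3 largest rises and the 3 largest falls were named in siRAD21 against siCtrl, siCtrl OHT against siCtrl and siRAD21 OHT against siRAD21 at 48 h, among called genes whose libraries did not overlap. For ASNS, DDIT3 and HSPA5 the 3 genes of nearest pattern were named. Any other list gene in the text was chosen after its values were seen. The members and lists were chosen with earlier results of these data known. The replicate numbers of siCtrl and siCtrl OHT at 48 h may pair the libraries. Deviations of same-numbered libraries from their group means correlated at 0.258, 0.130 and 0.157, and those of differently numbered ones at -0.200 to 0.048. Deviations within a group depend on each other, and the pairing was not tested. The main fit had no replicate block. Alternatives in pseudocount, filter, scaling, model and left-out libraries were tried, and limma-voom on recovered reads and undoing duplicate removal were added after the data were seen. Positions are from a GRCh37 annotation, and promoter windows from RefSeq (GRCh38.p14).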

Additional observations from a re-analysis of the deposited data

Results flagged for a closer look

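For 5 genes the effect of OHT at 48 h differed between RAD21-depleted and control cells by a test of the difference itself (limma interaction): CHAC1 by 1.76, PHGDH by 0.99, ASNS by 0.94, PSAT1 by 0.90 and XBP1 by 0.65 on the log2 scale, all larger in RAD21-depleted cells. For 4 genes the effect of RAD21 silencing differed between 48 and 24 h: CHAC1 by -1.53, PHGDH by -1.44, PSAT1 by -1.01 and ASNS by -0.999, all lower at 48 h. The effect of OHT in control cells on TRIB3 was larger at 48 than at 24 h by 0.52.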

How the results depend on the processing

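Of the counts of called members over 15 comparisons, 452 values under the alternatives stayed within 1.5 times the reported count and 43 did not. Without a fold threshold the counts were 2 for siRAD21 against siCtrl at 24 h, 4 for siCtrl OHT against siCtrl at 24 h, 4 for siRAD21 OHT against siRAD21 at 24 h, 2 for siRAD21 OHT against siCtrl OHT at 24 h and 5 for siRAD21 OHT against siCtrl at 24 h. Of all genes tested, 25.8, 26.5, 35.2, 20 and 34.4% were called in these comparisons, in the same order. At 48 h the counts were 8 for siRAD21 against siCtrl, 6 for siCtrl OHT against siCtrl, 6 for siRAD21 OHT against siCtrl OHT and 9 for siRAD21 OHT against siCtrl, and 5 for siCtrl at 48 against 24 h. The shares of all genes were 57.7, 53.3, 45.2, 59.7 and 45.2%, in the same order. With a log2 threshold of 1 the counts were 0 at 24 h for OHT in siCtrl cells, for OHT in siRAD21 cells and for siRAD21 OHT against siCtrl, where 1.49, 1.95 and 2.68% of all genes were called. At 48 h they were 2 for siRAD21 against siCtrl, 4 for siRAD21 OHT against siRAD21, 2 for siRAD21 OHT against siCtrl and 1 for the interaction, where 6.46, 7.37, 9.1 and 1.33% were called. They were 0 for the change of the OHT effect and for siCtrl over time, where 0.333 and 2.05% were called. In siRAD21 OHT against siCtrl OHT at 48 h the count went from 0 to 1 with median centring, to 1 with the replicate block and to 2 with duplicate removal undone. In siCtrl over time it went from 1 to 2 with median centring, quantile normalization and limma-voom. With quantile normalization it fell from 2 to 1 in siRAD21 OHT against siRAD21 at 24 h and from 1 to 0 for the change of the OHT effect. The causes were not tested.

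Leaving out 1 library at a time, with a lone library assumed to vary like the others, gave 1 to 2 calls in siCtrl OHT against siCtrl at 24 h, 0 to 2 in siRAD21 OHT against siRAD21 at 24 h, 4 to 5 in siRAD21 against siCtrl at 48 h, 2 to 3 in siCtrl OHT against siCtrl at 48 h, 8 each time in siRAD21 OHT against siRAD21 at 48 h, 0 to 2 in siRAD21 OHT against siCtrl OHT at 48 h, 4 to 5 in siRAD21 OHT against siCtrl at 48 h, 5 to 6 in the interaction at 48 h, 4 to 5 for the change of the siRAD21 effect, 0 to 1 for that of the OHT effect and 0 to 2 in siCtrl over time. Values near 0 changed sign. PHGDH in siCtrl OHT vs siCtrl 48 h was 0.0177 with median centring and -0.0454 to 0.0310 when 1 library was left out, the highest without siCtrl OHT 48 h replicate 1. HSPA5 there was -0.0752 with quantile normalization and -0.0259 to 0.0558 when 1 was left out, the lowest without siCtrl 48 h replicate 2, and XBP1 there was -0.0371 with quantile normalization. ATF4 in siRAD21 against siCtrl at 48 h was 0.0107 with quantile normalization, and the TRIB3 interaction at 48 h was -0.103 to 0.0140 when 1 library was left out, the highest without siCtrl 48 h replicate 1.

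With the replicate block, DDIT3 in siRAD21 OHT against siCtrl OHT at 48 h (0.50) and ATF3 in siRAD21 against siCtrl at 48 h (0.61) were called, and no other call of the 10 genes changed. Averaging the siRAD21 OHT libraries at 48 h changed none. The edgeR and DESeq2 fits planned on recovered reads were not run, and limma-voom was run on those reads in their place. CHAC1 rests on 108 and 117 reads in the siRAD21 libraries at 48 h, the lowest of the 10 genes.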
